A study of Mus musculus with 12 samples.

Results

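HIF1A and ARNT are the subunits of HIF-1, the transcription factor that responds to low oxygen. This comparison set the 2 HIF1A peak lists made at 4% O2 beside the 2 ARNT peak lists made at 4% O2, to ask where the 2 proteins were found together, where HIF1A was found without ARNT and where ARNT was found without HIF1A. The members were all peaks of these 4 lists, 91218 of the 119057 peaks in the 8 lists of the study, and the sites that result from joining them. The study measured binding by ChIP-seq, in which DNA fragments pulled down with an antibody are sequenced, in 12 samples of N1E115, a mouse neuroblastoma cell line that the labels describe as NOS1+, which refers to neuronal nitric oxide synthase. Every group used here was this untreated line, kept for 3 days at 4% O2 or, for a later comparison, at 20% O2, with 5% CO2 in all of them. Each antibody had 2 lists at each oxygen level, and 4 further samples were inputs, chromatin sequenced without an antibody. A single line was used, and no label ties a replicate to a culture of its own, so the spread between lists may be technical.

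In textbook terms, oxygen-dependent prolyl hydroxylases mark HIF1A for destruction, and HIF1A accumulates when oxygen falls. ARNT is present at any oxygen level and pairs with HIF1A through basic helix-loop-helix and PAS domains, and the pair reads the core sequence ACGTG, or its variant GCGTG, of a hypoxia response element. ARNT also pairs with other PAS proteins, such as the dioxin receptor AHR, so its sites need not all be sites of HIF1A.

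Promoter sequences are printed first, because the classes of sites described below differed in the short sequences that their promoters held. Each is the stretch of 250 bases before a gene's start, 5′ to 3′ on the gene's strand, taken from RefSeq (GRCm38.p6, the same build as mm10). Capitals mark ACGTG, its variant GCGTG and the CCAAT box on either strand. On the other strand ACGTG reads CACGT, the variant reads CACGC and the box reads ATTGG. The CCAAT box is a common promoter element bound by the factor NF-Y. The first 6 are the promoters with the highest mean rank among those with a peak in all 4 lists. They belong to the glycolysis genes Pgam1 (chr19:41911621-41911870, plus strand), Pfkl (chr10:78009808-78010057, minus strand) and Pgk1 (chrX:106186850-106187099, plus strand), to P4ha1, which hydroxylates collagen (chr10:59323046-59323295, plus strand), to Alkbh5, an RNA demethylase (chr11:60537433-60537682, plus strand), and to Slc16a3, a lactate exporter (chr11:120948817-120949066, plus strand).
Pgam1: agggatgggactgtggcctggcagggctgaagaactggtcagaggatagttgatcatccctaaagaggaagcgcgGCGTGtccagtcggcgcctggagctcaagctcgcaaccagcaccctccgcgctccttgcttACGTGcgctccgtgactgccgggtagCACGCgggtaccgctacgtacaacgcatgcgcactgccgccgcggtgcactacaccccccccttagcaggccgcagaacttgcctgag
Pfkl: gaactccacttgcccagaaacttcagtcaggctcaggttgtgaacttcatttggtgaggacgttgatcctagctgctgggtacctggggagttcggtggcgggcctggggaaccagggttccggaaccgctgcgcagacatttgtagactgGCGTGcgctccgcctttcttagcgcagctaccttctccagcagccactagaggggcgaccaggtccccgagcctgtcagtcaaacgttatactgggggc
Pgk1: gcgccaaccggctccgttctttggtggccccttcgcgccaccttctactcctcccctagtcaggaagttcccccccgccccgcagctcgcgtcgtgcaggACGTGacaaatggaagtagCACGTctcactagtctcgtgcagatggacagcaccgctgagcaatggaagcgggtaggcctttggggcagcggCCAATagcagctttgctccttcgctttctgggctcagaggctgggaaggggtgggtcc
P4ha1: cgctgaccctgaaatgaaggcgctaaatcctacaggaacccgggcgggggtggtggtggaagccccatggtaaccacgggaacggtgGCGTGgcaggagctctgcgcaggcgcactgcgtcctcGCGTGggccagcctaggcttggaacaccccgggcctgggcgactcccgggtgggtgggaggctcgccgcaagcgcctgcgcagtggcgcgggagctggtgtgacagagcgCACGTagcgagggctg
Alkbh5: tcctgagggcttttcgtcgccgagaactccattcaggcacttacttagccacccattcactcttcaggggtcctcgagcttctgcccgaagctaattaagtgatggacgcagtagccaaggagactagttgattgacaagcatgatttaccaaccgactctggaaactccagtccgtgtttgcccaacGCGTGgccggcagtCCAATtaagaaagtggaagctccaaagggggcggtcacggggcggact
Slc16a3: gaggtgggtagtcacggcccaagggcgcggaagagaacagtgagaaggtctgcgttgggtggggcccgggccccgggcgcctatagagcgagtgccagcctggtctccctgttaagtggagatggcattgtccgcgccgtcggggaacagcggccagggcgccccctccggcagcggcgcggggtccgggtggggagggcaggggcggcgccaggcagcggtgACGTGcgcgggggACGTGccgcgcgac

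The next 3 promoters had a peak in both HIF1A lists and in neither ARNT list. They belong to Tpgs1, a subunit of a tubulin polyglutamylase (chr10:79669189-79669438, plus strand), Txndc15, a thioredoxin domain protein (chr13:55714400-55714649, plus strand), and Arap1, a regulator of small GTPases (chr7:101347819-101348068, plus strand).
Tpgs1: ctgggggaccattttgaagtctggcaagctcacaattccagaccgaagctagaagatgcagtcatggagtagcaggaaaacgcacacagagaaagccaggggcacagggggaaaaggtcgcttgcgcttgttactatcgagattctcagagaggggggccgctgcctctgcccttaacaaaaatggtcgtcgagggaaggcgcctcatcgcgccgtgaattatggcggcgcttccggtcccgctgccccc
Txndc15: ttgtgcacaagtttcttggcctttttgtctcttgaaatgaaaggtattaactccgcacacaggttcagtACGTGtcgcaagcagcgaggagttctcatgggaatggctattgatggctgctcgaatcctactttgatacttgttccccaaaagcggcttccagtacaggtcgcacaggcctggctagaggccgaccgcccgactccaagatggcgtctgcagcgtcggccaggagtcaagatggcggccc
Arap1: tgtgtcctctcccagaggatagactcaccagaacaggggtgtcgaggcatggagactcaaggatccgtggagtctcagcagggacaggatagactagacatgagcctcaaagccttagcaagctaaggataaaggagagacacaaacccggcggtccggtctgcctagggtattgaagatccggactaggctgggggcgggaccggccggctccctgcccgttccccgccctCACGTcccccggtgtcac

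The last 3 had a peak in both ARNT lists and in neither HIF1A list. They belong to Zfp687, a zinc finger protein (chr3:95015458-95015707, minus strand), Abhd2, a hydrolase (chr7:79273016-79273265, plus strand), and Nlk, the Nemo-like kinase (chr11:78697426-78697675, minus strand).
Zfp687: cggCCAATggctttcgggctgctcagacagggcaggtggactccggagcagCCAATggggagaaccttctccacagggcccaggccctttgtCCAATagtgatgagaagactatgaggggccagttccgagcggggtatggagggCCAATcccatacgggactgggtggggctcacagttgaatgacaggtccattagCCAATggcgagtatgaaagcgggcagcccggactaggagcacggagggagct
Abhd2: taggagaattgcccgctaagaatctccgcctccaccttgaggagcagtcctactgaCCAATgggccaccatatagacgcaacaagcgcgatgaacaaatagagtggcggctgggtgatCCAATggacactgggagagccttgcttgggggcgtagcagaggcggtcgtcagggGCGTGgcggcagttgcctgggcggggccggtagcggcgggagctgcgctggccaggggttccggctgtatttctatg
Nlk: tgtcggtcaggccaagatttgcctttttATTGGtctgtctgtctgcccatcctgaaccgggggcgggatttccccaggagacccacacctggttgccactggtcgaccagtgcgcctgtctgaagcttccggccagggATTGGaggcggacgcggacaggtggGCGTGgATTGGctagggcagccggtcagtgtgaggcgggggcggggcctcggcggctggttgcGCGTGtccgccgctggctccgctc

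In these stretches ACGTG occurred in 4 of the 6 promoters bound by both proteins and in 2 of the 3 bound by HIF1A without ARNT. It occurred in none of the 3 bound by ARNT without HIF1A. CCAAT occurred 5 times before Zfp687, 2 times before Abhd2 and 3 times before Nlk, once each before Pgk1 and Alkbh5, and in none of the 3 promoters bound by HIF1A alone. These 12 promoters were taken from the tops of their classes, and the shares over all promoters are given further on.

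The 4 lists differed in length. HIF1A had 42701 peaks in replicate 1 and 13655 in replicate 2, and ARNT had 24942 in replicate 1 and 9920 in replicate 2. The longest list was HIF1A replicate 1 and the shortest ARNT replicate 2, and the ranges of the 2 antibodies overlapped. HIF1A had 1.54 times as many peaks as ARNT (geometric mean of the lists), 1.71 times in replicate 1 and 1.38 times in replicate 2. The log2 ratio of 0.62 was smaller than the spread between replicates (SD 1.16 for HIF1A and 0.94 for ARNT on the log2 scale, n = 2 each). A two-sided exact permutation test over lists gave p = 0.667 (adjusted p = 0.778 over 7 such tests), and 2 lists against 2 cannot go below 0.333. Without HIF1A replicate 1 the log2 ratio was -0.20 and without ARNT replicate 2 it was -0.05, so its direction rests on these lists. The file headers place both replicate 1 lists on the same sequencing lane, and the ratio of 1.71 is the value within it. HIF1A replicate 1 and both ARNT lists were called against input 4, and HIF1A replicate 2 against input 5. HIF1A replicate 2 also differs in form: it holds 1 bp summits from reads of combined sequencing runs, and each summit was widened by 100 bp on both sides. The lists carry no read counts, so depth is unknown, and the length of a list cannot be told apart from the depth and the enrichment behind it.

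Joining all peaks that overlapped by at least 1 bp gave 46591 sites. HIF1A and ARNT were found together, with a peak in all 4 lists, at 5768 sites (12.4%). HIF1A without ARNT, with a peak in both HIF1A lists and in neither ARNT list, was found at 1338 sites. ARNT without HIF1A was found at 176 sites. The other 39309 sites had a partial pattern, and 18522 of them had a peak in HIF1A replicate 1 alone. A further 9225 had peaks in the 2 replicate 1 lists and nowhere else, and 4672 lacked only ARNT replicate 2. The median width was 383 bp for co-bound, 237.5 bp for HIF1A-only and 190 bp for ARNT-only sites. A site spans all the peaks joined in it, so sites with peaks in more lists tend to be wider by the way they were made.

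**Figure D1:**
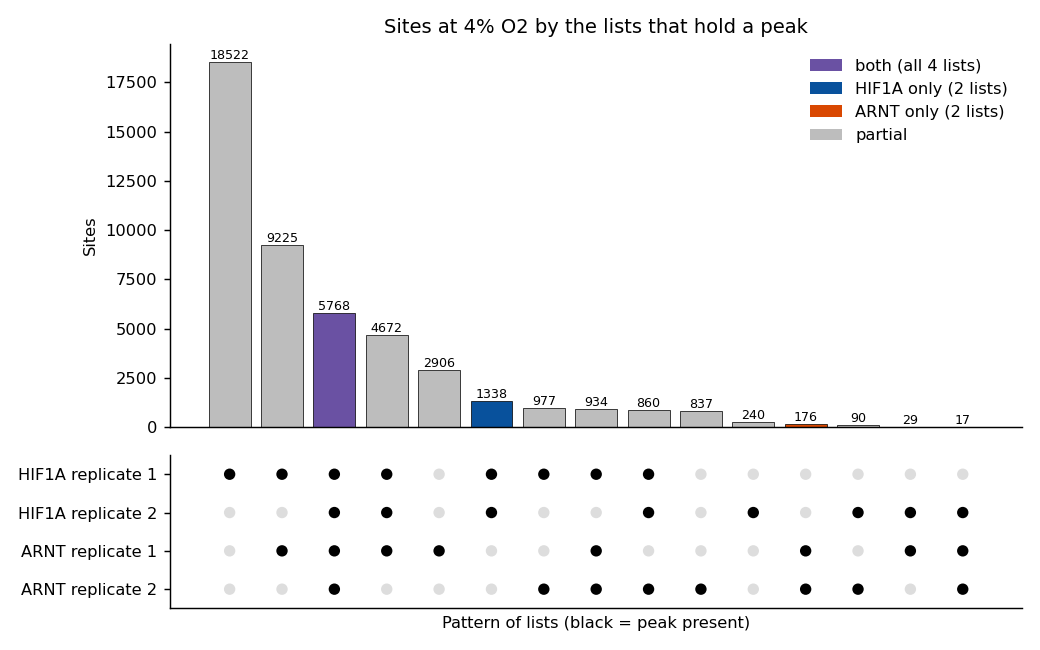
Number of sites at 4% O2 (y axis) for each of the 15 patterns of lists with a peak (columns, black dots mark the lists). The 5768 co-bound sites are the third largest pattern, and the 1338 HIF1A-only and 176 ARNT-only sites are far fewer than the 18522 found in HIF1A replicate 1 alone.

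The overlap was lopsided when given as a share of the regions of each protein. Of the 6895 ARNT regions, those with a peak in both ARNT lists, 83.7% (95% Wilson interval 82.8 to 84.5) had a peak in both HIF1A lists and 2.55% (2.21 to 2.95) had one in neither. Of the 12638 HIF1A regions, 45.6% (44.8 to 46.5) had a peak in both ARNT lists, 43.8% in 1 of them and 10.6% (10.1 to 11.1) in neither. The 83.7% and the 45.6% count the same 5768 sites, so they differ only through the numbers of regions. A region needs a peak in both lists of its antibody, so these numbers depend on list length and on how far those lists overlap. Where HIF1A regions had a single ARNT list, it was ARNT replicate 1 in 4672 cases and the shorter ARNT replicate 2 in 860. The HIF1A list on input 4 had a peak at 97.2% (96.8 to 97.6) of ARNT regions, and the HIF1A list on input 5 at 83.9% (83.0 to 84.7). Of the ARNT regions with 1 HIF1A list, 934 had the list on input 4 and 17 the list on input 5. The list on input 4 was also the longer (42701 against 13655 peaks), so input and length cannot be told apart here. When every list was cut to its 9920 highest peaks, ARNT replicate 1 overlapped the lists on inputs 4 and 5 at 65.8% and 56.8% of its peaks. For ARNT replicate 2 it was 54.1% and 60.0%. These intervals cover the counting of sites in these lists and not the spread between samples.

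The counts of the classes moved with single lists. Without ARNT replicate 2, the shortest list, 10467 sites were co-bound, and without any other list 5775 to 6702 were. Without HIF1A replicate 2 the HIF1A-only class held 19890 sites, without ARNT replicate 1 it held 6010 and without ARNT replicate 2 it held 2243. The ARNT-only class held 1138 sites without HIF1A replicate 1, 1024 without ARNT replicate 1 and 3096 without ARNT replicate 2. When every list was cut to its 9920 highest peaks, the length of ARNT replicate 2, there were 3691 co-bound, 914 HIF1A-only and 466 ARNT-only sites. HIF1A-only sites thus outnumbered ARNT-only sites with all peaks and with equal lengths, but without ARNT replicate 2 the order was reversed (2243 against 3096).

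Equal lengths also allowed the lists to be compared with one another. Of the 9920 highest peaks, 72.0% of HIF1A replicate 1 overlapped HIF1A replicate 2, and 74.4% the other way. Between the ARNT lists it was 47.2% and 46.2%. HIF1A replicate 2, which shares its input with no other of these lists, overlapped ARNT replicate 1 at 57.1% and ARNT replicate 2 at 60.8% of its peaks. So each ARNT list shared more peaks with the HIF1A list on the other input (56.8% and 60.0% of ARNT peaks) than with the other ARNT list. The lists on input 4 share that control: there 63.5% and 52.6% of HIF1A replicate 1 peaks overlapped ARNT replicates 1 and 2.

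Strength, taken as the percentile rank of the authors' score among the scores of the same list (the top peak has 100), went with co-binding in every list. The median rank of co-bound sites was 91.4 and 76.5 in HIF1A replicates 1 and 2, and 79.4 and 67.1 in ARNT replicates 1 and 2. HIF1A-only sites had medians of 58.0 and 23.9 in the 2 HIF1A lists, and 1.79% and 0% of them lay in the top 10% of those lists. ARNT-only sites had medians of 62.8 and 37.8, and 15.9% and 1.14% of them lay in the top 10%. In HIF1A replicate 2, a peak in both ARNT lists was found at 11.6% of the weakest 10% of peaks and at 98.5% of the strongest 10%. In ARNT replicate 2, a peak in both HIF1A lists was found at 38.6% of the weakest and 98.7% of the strongest. Replicate 1 lists rose the same way, HIF1A from 1.36% to 74.2% and ARNT from 19.9% to 85.2%. Overlap with the other list of the same antibody was also higher at the strongest 10% than at the weakest. It went from 3.05% to 96.9% and from 91.4% to 98.8% in HIF1A replicates 1 and 2. For ARNT it went from 11.98% to 80.1% and from 52.1% to 99.3%. The rise was thus not particular to the other antibody. A co-bound site needs a peak in every list, so part of its higher rank may follow from that rule.

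**Figure D2:**
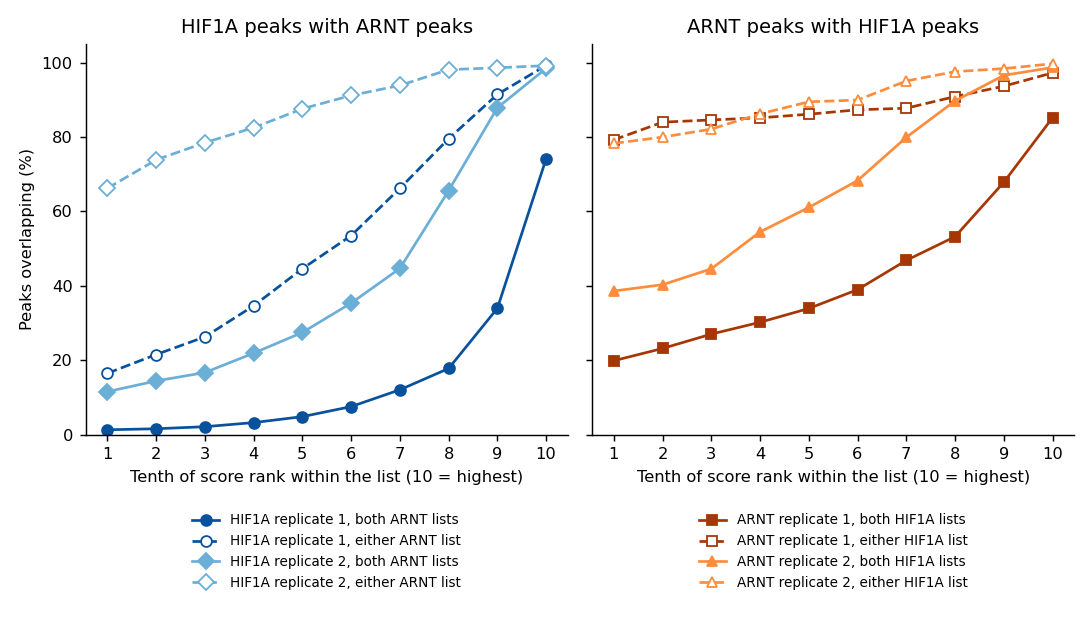
Percent of peaks (y axis) that overlap a peak of the other antibody, by score rank within the list in 10 equal bins (x axis, 10 is the highest), with filled points for an overlap with both lists of the other antibody and open points for an overlap with either. Every line is higher at its right end than at its left, and in the highest bin 98.5% of HIF1A replicate 2 and 98.7% of ARNT replicate 2 peaks had both lists of the other antibody.

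Among the 10 strongest co-bound sites, 5 lay at or near genes of glycolysis or lactate export (Pgam1, Pfkl, Pgk1, Slc16a3 and Hk2). The 10 with the highest mean rank lay at Pgam1, Pfkl, Pgk1, P4ha1, Alkbh5 and Slc16a3, at Narf, whose product binds prenylated prelamin A, near Rassf7 (3354 bp from a gene end), near Psma6, a proteasome subunit gene (25379 bp), and near Hk2, the gene of hexokinase 2 (47494 bp). Each ranked at 99.8 or higher in all 4 lists. The Pgam1 site, chr19:41910447-41912205, was the highest peak of both HIF1A lists and ranked 99.99 in each ARNT list. The Hk2 site, chr6:82820539-82823358, lay between genes and ranked 99.95 and 99.93 in the HIF1A lists and 99.91 and 99.97 in the ARNT lists. At 20% O2 the site near Psma6 and the site near Rassf7 had a peak in HIF1A replicate 2 only, and the other 8 had peaks in both ARNT lists as well.

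HIF1A-only sites reached high ranks at a few genes. At Tpgs1 (chr10:79669101-79669506) HIF1A ranked 95.8 in replicate 1 and 88.4 in replicate 2, with no ARNT peak in either list. At Txndc15 (chr13:55714521-55714730) the ranks were 95.9 and 84.6. The next sites were inside Zfp704 (96.2 and 83.3), 25893 bp from Vash1, the gene of a tubulin carboxypeptidase (95.5 and 81.0), and at Arap1 (80.7 and 80.9). The last 5 of the 10 lay near Chd7, a chromatin remodeller gene, at 0610009B22Rik, at Mynn, and inside Clybl and Prtg, with ranks of 77.1 or more in both lists. Of these 10, 8 had an HIF1A peak at 20% O2 in at least 1 list, and none had an ARNT peak there.

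ARNT-only sites were led by sites close to gene ends. At Crlf2, a cytokine receptor gene (chr5:109558356-109558701), ARNT ranked 98.0 in replicate 1 and 92.7 in replicate 2, with no HIF1A peak. The site 5875 bp from Srbd1 (chr17:86150915-86151268) ranked 99.4 and 92.5. The site between Maf1, whose product represses RNA polymerase III, and Cyc1, the gene of cytochrome c1 (chr15:76351066-76351361), ranked 98.2 and 88.2. Sites at Ccdc188, Zfp687, Abhd2, Nlk, Thbs3, Nfatc2ip and Ankrd54 followed, with a lowest rank of 78.7. All 10 had a peak in ARNT replicate 1 at 20% O2, 9 of them also in ARNT replicate 2, and none had an HIF1A peak there.

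Ranks at the 5768 co-bound sites differed between lists of the same antibody as well as between antibodies. Over these sites the ranks of HIF1A replicate 2 had a Spearman rho of 0.86 with HIF1A replicate 1, 0.74 with ARNT replicate 1 and 0.76 with ARNT replicate 2, as a description over sites that share libraries. The lowest rho of the 6 pairs was 0.60, between the 2 ARNT lists, which share an input, so these values did not set the antibodies apart. Both HIF1A ranks lay above both ARNT ranks at 1500 sites (26% of co-bound sites) and the reverse held at 102 (1.77%). A long list gives the same site a higher percentile, and HIF1A replicate 1 was the longest, so the ranks were also taken among co-bound sites alone. The counts were then 962 (16.7%) and 920 (16%). Splitting the same 4 ranks by replicate number put replicate 1 above replicate 2 at 1269 sites (22%) and below at 1421 (24.6%). So 32.6% of co-bound sites were separated by antibody and 46.6% by replicate number, and the separation by antibody was no larger than the difference between replicates.

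At 3 of the 6 sites with the largest HIF1A lead by list rank, the lead was also among the 6 largest by rank among co-bound sites. The site 1962 bp from Btbd2 (chr10:80658308-80658604) ranked 63.4 and 57.1 among co-bound sites for HIF1A and 9.56 and 7.15 for ARNT. Thap4, a THAP zinc finger gene, had 53.0 and 44.8 against 0.676 and 7.22, and the site near Adra2b, an adrenergic receptor gene, had 51.4 and 58.7 against 5.36 and 15.0. By list rank the sites near Map9, near Maml3, a Notch coactivator gene, and at Msl2 also stood among the 6. By rank among co-bound sites the others were Stc2, the gene of the hormone stanniocalcin 2, Hsd17b12 and Usp31.

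The ARNT lead was largest at Sp1, the gene of a general promoter-binding factor (chr15:102405595-102406313). It ranked 96.5 and 81.8 among co-bound sites for ARNT and 3.35 and 1.83 for HIF1A. The site 627 bp from Slc25a25, a mitochondrial carrier gene, lay inside Naif1. Its ranks were 79.4 and 79.8 for ARNT and 5.98 and 10.5 for HIF1A. At Copz1, a coatomer subunit gene, they were 82.2 and 67.0 against 0.659 and 1.18. Tomm40, of the mitochondrial import pore, Jup, the gene of plakoglobin, and Arntl completed the 6. Arntl encodes BMAL1, itself a basic helix-loop-helix PAS protein of the circadian clock. Its site (chr7:113207077-113207510) lay 172 bp from a start inside the gene and ranked 63.5 and 48.3 for ARNT against 0.173 and 0.719 for HIF1A. By list rank Dcun1d4, Tulp2 (a site inside Dhdh) and Mpp5 took the places of Sp1, Slc25a25 and Jup.

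**Figure D3:**
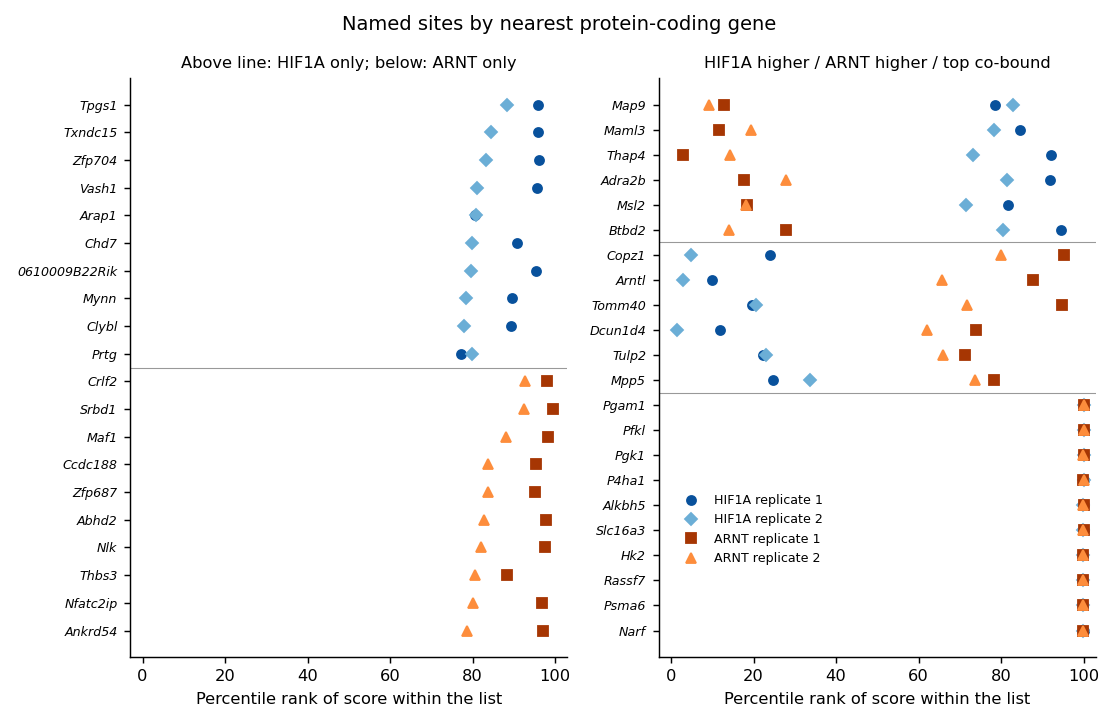
Percentile rank of the score within its list (x axis) for the named sites, labelled by the nearest protein-coding gene, with 1 symbol per list. The left panel has the 10 HIF1A-only sites above the line and the 10 ARNT-only sites below it, and the right panel has 6 co-bound sites with HIF1A ranked higher, 6 with ARNT ranked higher and the 10 strongest, whose symbols overlie each other at the right edge.

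The classes lay in different places relative to genes. Within 1 kb of a gene end lay 37.7% of co-bound sites (36.5 to 39.0), 23.2% of HIF1A-only sites (21.1 to 25.6) and 65.7% of ARNT-only sites (58.4 to 72.3, 115 of 175 on the numbered chromosomes and X), against 22.1% of all sites. The median distance was 4175 bp for co-bound, 11954.5 bp for HIF1A-only and 192 bp for ARNT-only sites. The same order held for distance to a gene start, with 34.5%, 20.8% and 60.2% within 1 kb. Nearness to gene ends was not particular to ARNT-only sites. Of the 934 sites with both ARNT lists and HIF1A replicate 1 but not HIF1A replicate 2, 58.2% lay within 1 kb of a gene end (median 352.5 bp). Among co-bound sites, 51.3% of those with ARNT ranked higher among co-bound sites and 26.5% of those with HIF1A ranked higher lay within 1 kb of a gene end. The order of the classes rested on ARNT replicate 2. Without it the order turned over, with 31.5% of HIF1A-only, 27.0% of co-bound and 25.5% of ARNT-only sites within 1 kb. Without ARNT replicate 1 the order stayed, with ARNT-only sites at 41.9% and co-bound sites at 38.4%. List by list, HIF1A had 21.8% and 27.6% of peaks within 1 kb and ARNT had 24.6% and 41.3%, which overlap. With lists of equal length HIF1A had 24.0% and 28.8%, while ARNT had 30.6% and 41.3%. Both HIF1A lists then lay below both ARNT lists, with a difference (HIF1A minus ARNT) of -9.57 percentage points and of -6.61 within the shared lane. The two-sided exact test by permutation gave p = 0.333, the lowest value possible here (adjusted p = 0.583).

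Promoter motifs also differed between the classes, though not for every motif or pair of classes. A promoter window runs from 250 bases before to 50 after a start, and 21045 windows were searched on both strands for each motif. ACGTG was in 52.4% of the 2016 windows that overlapped a co-bound site, in 27.5% (21.8 to 33.9) of 204 windows at HIF1A-only sites and in 19.1% (12.8 to 27.4) of 110 windows at ARNT-only sites. All windows had 21.1%. GCGTG was in 69.4%, 69.6% and 52.7%, against 38.8% of all windows, so its share in these windows was as high at HIF1A-only as at co-bound sites. CACGTG, the E-box, which contains ACGTG, was in 17.6%, 11.8% and 6.36%, against 7.91%. CCAAT was instead most frequent at ARNT-only sites, with 43.2% at co-bound, 33.8% (27.7 to 40.6) at HIF1A-only and 67.3% (58.1 to 75.3) at ARNT-only sites, against 38.5% of all windows. CCAAT without ACGTG was in 56.4% of ARNT-only windows and in 30.6% of all windows. A high share of CCAAT was not particular to ARNT-only sites. At co-bound sites with ARNT ranked higher among co-bound sites, CCAAT was in 52.6% (48.1 to 57.0) of windows. At those with HIF1A ranked higher it was in 41.5% (35.1 to 48.1). GGGCGG, the GC box, was in 76.1%, 74.0% and 72.7%, against 46.7%. All windows include 13733 that overlapped no site. The 4982 windows at sites with a partial pattern had ACGTG in 23.9%, GCGTG in 55.5%, CCAAT in 42.0% and GGGCGG in 68.0%. Beside these, ARNT-only windows were not higher for ACGTG or GCGTG, and the interval of their GGGCGG share (63.7 to 80.2) included 68.0%.

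With promoters classed by gene, so that a gene's class came from sites within 5 kb of its ends, ACGTG was in 36.7% of co-bound, 22.7% of HIF1A-only and 19.5% of ARNT-only promoters, GCGTG was in 58.1%, 48.8% and 47.6%, and CCAAT was in 40.5%, 34.9% and 61.0%. Leaving out each list in turn kept ARNT-only genes above the other classes for CCAAT (47.3% to 60.9%, against 39.7% to 42.0% for co-bound and 32.0% to 36.2% for HIF1A-only genes). It also kept co-bound genes highest for ACGTG (34.1% to 36.9%). The order of the single-subunit classes for ACGTG was not kept. HIF1A-only and ARNT-only genes had 20.8% and 27.2% without HIF1A replicate 1, and 18.2% and 20.7% without HIF1A replicate 2. Without ARNT replicate 1 they had 25.1% and 23.0%, and without ARNT replicate 2 they had 29.4% and 16.9%. Among co-bound windows the share with ACGTG rose with rank in every list. From the weakest to the strongest 20% of sites it went from 39.7% to 66.8% in HIF1A replicate 1, from 38.5% to 65.1% in HIF1A replicate 2, from 46.7% to 62.1% in ARNT replicate 1 and from 39.3% to 63.1% in ARNT replicate 2. A match is a description of these letters and not of a bound site.

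The motif shares were also taken list by list. With lists of equal length, ACGTG was in 50.1% and 52.9% of the promoter windows with an HIF1A peak and in 41.2% and 45.2% of those with an ARNT peak. Both HIF1A values lay above both ARNT values, and the difference was 8.29 percentage points (8.90 within the shared lane, two-sided exact permutation test, p = 0.333, adjusted p = 0.583). With all peaks HIF1A had 33.5% and 48.3% and ARNT had 35.4% and 45.2%, and the difference of 0.613 was within the spread between lists (exact permutation p = 1). CCAAT was in 41.0% and 41.8% of windows with an HIF1A peak and in 46.4% and 45.0% of those with an ARNT peak, a difference of -4.34 points with all peaks and -5.30 with equal lengths (exact permutation p = 0.333 for both, adjusted p = 0.583). ARNT lists were higher for CCAAT at both settings, 2 of 2 lists each.

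Peaks at 20% O2, which did not enter the classes, were frequent at ARNT-only sites for ARNT and rare there for HIF1A. ARNT at 20% O2 had a peak at 52.8% (45.5 to 60.1) and 21.6% of ARNT-only sites in replicates 1 and 2, against 22.3% and 7.16% of co-bound sites and 13.9% and 3.73% of all sites. The 934 sites with both ARNT lists and HIF1A replicate 1 but not HIF1A replicate 2 lay between, at 28.3% and 13.3%. HIF1A at 20% O2 had a peak at 0.568% and 6.25% of ARNT-only sites, against 13.7% and 58.8% of co-bound sites. HIF1A-only sites had an HIF1A peak at 20% O2 in 11.4% and 25.9% of cases, near the 10.8% and 25.9% of all sites. They had an ARNT peak there in 6.43% and 0.523% of cases, below the shares of all sites. The replicate 1 lists of both oxygen levels came from the same lane, and those of ARNT replicate 2 from different flow cells; its part in these shares was not tested.

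**Figure D4:**
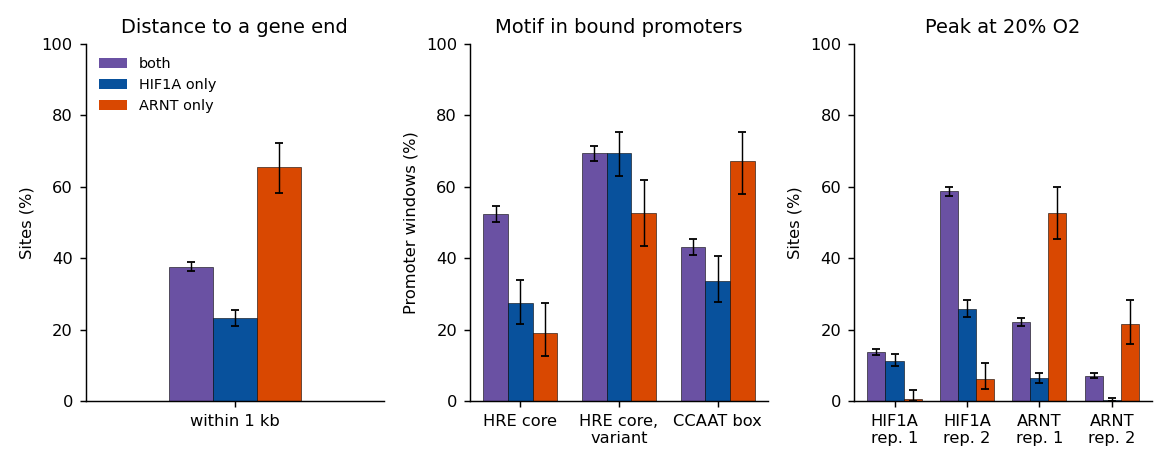
Percent of sites within 1 kb of a gene end (left), percent of bound promoter windows with ACGTG (HRE core, where HRE is the hypoxia response element), GCGTG (variant) or CCAAT (middle), and percent of sites with a peak in each list at 20% O2 (right), for co-bound, HIF1A-only and ARNT-only sites, with bars as shares and error bars as 95% Wilson intervals. ARNT-only sites are highest at 65.7% near gene ends, 67.3% with CCAAT and 52.8% with an ARNT replicate 1 peak at 20% O2, and co-bound sites are highest at 52.4% with ACGTG.

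Genes were classed by peaks within 5 kb of either gene end. Of 21631 protein-coding genes, 3705 (17.1%) had both proteins, 210 (0.971%) had HIF1A only and 90 (0.416%) had ARNT only, while 7172 (33.2%) had a partial pattern and 10454 (48.3%) no peak. The order of the single-subunit classes turned with list length and with single lists. From equally long lists 139 genes had HIF1A only and 405 had ARNT only, without HIF1A replicate 1 the counts were 240 and 767, and without ARNT replicate 2 they were 530 and 638. Without HIF1A replicate 2 they were 1897 and 101, and without ARNT replicate 1 they were 1088 and 272. A site deep inside a gene, even at an internal start, does not count under this rule. The gene lists below are set beside the 17.1%. Their single-subunit members stand beside the 0.971% and 0.416%, shares so low that lists of this size may hold none.

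Glycolysis and lactate genes had both proteins at 21 of 26 members. The steps from glucose entry to lactate were covered by Slc2a1, Hk2, Gpi1, Pfkl, Aldoa, Tpi1, Gapdh, Pgk1, Pgam1, Eno1, Pkm and Ldha, and the lowest rank of their best sites in any list was 98.8. Ldha, the lactate dehydrogenase A gene, ranked 99.9 and 99.6 for HIF1A and 99.8 and 99.5 for ARNT. Slc2a1, a glucose transporter gene, ranked 99.5 and 98.8 for HIF1A and 99.6 and 99.2 for ARNT. Not every member with both proteins ranked high. Pfkfb4 counts as having both, at the low ranks of 0.206 and 28.7 for HIF1A and 8.52 and 8.29 for ARNT. Pfkfb3, which makes the activator of phosphofructokinase, was the HIF1A-only member, at ranks of 41.3 and 20.3, well down both lists. Slc2a3 and Pfkm had partial patterns, and Hk1 and Ldhb had no peak.

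Mitophagy and mitochondrial adaptation genes had both proteins at 10 of 14 members and none had a single subunit. Bnip3, a mitophagy receptor gene, ranked 99.9 and 99.8 for HIF1A and 99.9 and 99.8 for ARNT. Ndufa4l2, Fam162a and Ddit4 had a lowest rank of 98.7 over the 4 lists. Angiogenesis, pH and iron genes had both at 11 of 19. Epo, the erythropoietin gene, ranked 99.9 and 99.8 for HIF1A and 99.9 in both ARNT lists. Vegfa, the main angiogenic growth factor gene, ranked lower, at 98.7 and 92.7 for HIF1A and 97.4 and 86.1 for ARNT. Adm and Tfrc, for adrenomedullin and the transferrin receptor, also had both.

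Oxygen sensing genes had both proteins at 7 of 15. Ankrd37 ranked at 99.9 or higher in all 4 lists, and Egln1, the main HIF prolyl hydroxylase gene, ranked 99.3 and 98.4 for HIF1A and 99.0 and 95.6 for ARNT. Vhl and Cited2, which act in HIF1A destruction and in feedback on its coactivators, had both as well. Egln3 had HIF1A ranks of 55.3 and 34.7 and an ARNT rank of 70.1 in replicate 1, with no peak in ARNT replicate 2 within 5 kb of its ends. Eloc, which encodes elongin C of the VHL complex, had HIF1A only, at ranks of 37.4 and 8.22. JmjC demethylase genes, whose products are themselves oxygen-dependent, had both at 11 of 18. Kdm3a ranked 99.9 and 99.8 for HIF1A and 99.9 and 99.7 for ARNT. Collagen and matrix enzyme genes had both at 9 of 15, with a lowest rank of 99.2 at P4ha1, P4ha2 and Plod2.

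Like most protein-coding genes, the genes of the PAS proteins themselves were mostly not co-bound near their ends. Of 19 members only Hif3a had both proteins within 5 kb of a gene end, at ranks of 95.6 and 93.0 for HIF1A and 85.7 and 93.0 for ARNT. That is 5.26%, beside 17.1% of all genes, and a list of 19 is too short to set these shares apart. Arntl counts as having no peak by this rule, although its internal start has the co-bound site described above, 28822 bp from the nearer gene end. Hif1a had a peak in HIF1A replicate 1 (rank 34.5) and ARNT replicate 1 (13.9), and Arnt had one in HIF1A replicate 1 (30.0). Epas1, which encodes HIF-2 alpha, and Nos1 had no peak within 5 kb of a gene end in any of the 4 lists. Clock genes had both at 14 of 21 by the same rule, with Arntl again not counted. Bhlhe40, a transcriptional repressor gene, had a lowest rank of 99.2 over the 4 lists, and Ciart one of 98.2. AHR targets, genes known to be switched on by AHR with ARNT, had both at 3 of 10 (Tiparp, Nqo1 and Nfe2l2). None had ARNT only, but with 0.416% of all genes in that class a list of 10 cannot tell. Cyp1a1, the textbook AHR target, had a partial pattern, and Cyp1a2 and Cyp1b1 had no peak.

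Immediate early genes had both at 9 of 21, led by Ier3 with a lowest rank of 99.4 over the 4 lists. Sympathoadrenal genes, of the lineage of neuroblastoma, had both at 6 of 18. Ddc, which makes dopamine, ranked 96.4 and 86.1 for HIF1A and 95.6 and 90.5 for ARNT. Chgb, a secretory granule gene, and Hand2, a lineage transcription factor gene, had HIF1A only, at ranks of 67.9 and 23.1 and of 81.3 and 15.4. Peaks measure binding and not expression, so they do not check the labelled cell type. Nitric oxide and cGMP genes had both at 6 of 22, with a lowest rank of 96.2 at Nos3 and Dynll1. Slc7a1, an arginine transporter gene, had ARNT only, at the low ranks of 17.7 and 21.0.

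Oxidative phosphorylation genes had both at 9 of 39, nearer the 17.1% of all genes. A partial pattern was found at 25 of 39 (64.1%), against 33.2% of all genes, and no peak at 10.3%, against 48.3%. Cyc1 was the ARNT-only member, with ranks of 98.2 and 88.2 and no HIF1A peak. These are the ranks of the site between Maf1 and Cyc1 described above. The nearest gene end to that site was that of Maf1, 81 bp away, and not that of Cyc1. Ribosomal protein genes had both at 13 of 50, a partial pattern at 33 (66%) and no peak at 8%. Genes of other tissues, which serve as a comparison list, had both at 2 of 32 and no peak at 20. Over all genes, the highest-ranking HIF1A-only genes were Stard10 (80.7 and 80.9, the same site as at Arap1), Hspa1a, a heat shock protein gene (88.3 and 76.6), and Psmb5, a proteasome subunit gene (91.9 and 74.6). The highest-ranking ARNT-only genes after Cyc1 were Ccdc188 (95.4 and 83.6), Nlk (97.6 and 82.1), Nfatc2ip, Ankrd54, Wdr66 and Ube2c. Ndufaf8, which encodes an assembly factor of respiratory complex I, was also among the first 10, at 94.8 and 70.8.

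**Figure D5:**
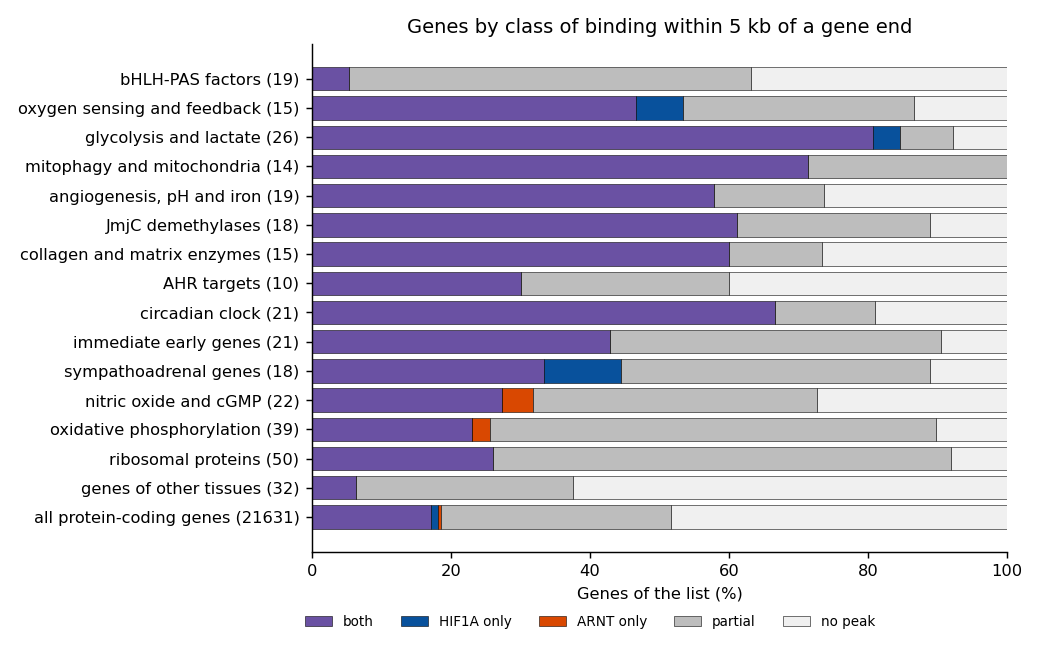
Percent of the genes of each list (x axis, number of genes in brackets) with both proteins, HIF1A only, ARNT only, a partial pattern or no peak within 5 kb of a gene end. Glycolysis has the largest share with both proteins, 21 of 26, all protein-coding genes have 17.1%, and the single-subunit classes are thin in every list.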

How the data were processed

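ChIP-seq peaks of HIF1A and ARNT in N1E115 cells were analysed as 4 deposited lists at 4% O2, with the 4 lists at 20% O2 as a readout. Groups and replicate numbers came from the sample titles. The build was mm10, and the submitters' processing notes name BWA, Picard and MACS2 without versions or settings. Per the file headers and names, the authors called peaks for each sample separately against input 4 or input 5. The deposited score of each peak is the authors' own value; its scale is not named and its lowest value was near 2, so it was used only as a percentile rank within its own list. The lists hold no read counts, so no depth per sample can be given.

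Peaks were joined at 1 bp overlap with pandas 2.3.3 and numpy 2.4.6 (python 3.11.15), HIF1A replicate 2 summits being widened by 100 bp on each side. Genes and promoters came from RefSeq tables of GRCm38.p6; the gene table has no strand, so distances run from a site's centre to either gene end, and to a start where the promoter table gives one (17274 of 21631 protein-coding genes, 79.9%). Shares carry 95% Wilson intervals, for counting error only. Single values per list were compared by two-sided exact permutation tests over lists (scipy 1.17.1), with Benjamini-Hochberg adjustment over 7 tests; the 4 motif tests by list were added after seeing the data. The scripts were tested on simulated lists. The shared replicate numbers are names that the labels tie to no common culture; with 2 pairs, pairing was not established.

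The sites named are the 10 strongest of each class by mean rank (co-bound) or lower rank (single subunit) and the 6 with the largest gap in each direction; up to 4 members of a gene list, a fixed set (Hif1a, Arnt, Epas1, Nos1, Vegfa, Egln3, Bnip3, Pgk1, Ldha) and promoter sequences of the highest ranks were also named. Further members of the lists, the highest genes of each single-subunit class and the gaps by rank among co-bound sites were named after their values were seen. Members, gene lists and motifs were chosen with earlier results of these data known. Alternatives varied summit width, overlap, score filter, list length, distance and the lists left out.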

Additional observations from a re-analysis of the deposited data

How the results depend on the processing

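Depth is unknown, so list length limits every count of sites and genes. Of the values under alternatives, 2 kinds changed sign. The log2 ratio of peak numbers, 0.62, ran from -0.20 (without HIF1A replicate 1) to 1.44 (without HIF1A replicate 2) and was -0.05 without ARNT replicate 2. The HIF1A minus ARNT difference in windows with ACGTG, 0.613 points, was -6.80 without HIF1A replicate 2 and -4.31 without ARNT replicate 1. It was 8.02 without HIF1A replicate 1 and 8.29 with lists of equal length. With a replicate block, replicate numbers taken as pairs, the log2 ratio was 0.62 as well (exact sign-flip permutation p = 0.5, the smallest that 2 pairs allow), and no call changed.

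Leaving out 1 list in turn gave 5775 to 10467 co-bound, 1766 to 19890 HIF1A-only and 193 to 3096 ARNT-only sites, and 3705 to 4816, 240 to 1897 and 101 to 767 genes. Sites within 1 kb of a gene end ranged from 27.0% to 40.6%, 15.6% to 31.5% and 25.5% to 66.1%. Promoters with ACGTG ranged from 34.1% to 36.9%, 18.2% to 29.4% and 16.9% to 27.2%, and those with CCAAT from 39.7% to 42.0%, 32.0% to 36.2% and 47.3% to 60.9%. For the upper 50% of each list there were 3147, 849 and 114 sites and 2069 co-bound genes. With lists of equal length there were 3691 co-bound and 466 ARNT-only sites and 2302, 139 and 405 genes, 34.4% of co-bound and 14.1% of HIF1A-only sites lay within 1 kb, and 39.9% of promoters of co-bound genes had ACGTG. When a peak in either list sufficed there were 22572, 20100 and 3919 sites and 8461, 1919 and 797 genes. Within 20 kb, 6183 genes were co-bound and 58 had ARNT only. Within 5 kb of a gene end lay 51.7%, 38.0% and 77.1% of sites. With 1808 peaks in each list at 20% O2, 3.92% of HIF1A-only sites had an HIF1A peak on average. For windows that overlap a site, motif shares in co-bound promoters were 52.4% for ACGTG, 69.4% for its variant GCGTG, 17.6% for the E-box CACGTG, 5.16% for the CRE TGACGTCA, 76.1% for the GC box GGGCGG and 43.2% for CCAAT. In HIF1A-only windows they were 69.6% for GCGTG, 11.8% for the E-box, 7.35% for the AP-1 motif TGANTCA and 74.0% for the GC box. Ranks among co-bound sites gave 962 and 920 separated sites. The cause was not tested for any of these.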
